A study of Rattus norvegicus with 6 samples.

Results

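The annexins are a family of proteins that bind acidic phospholipids when calcium rises, and 8 of their genes (Anxa1 to Anxa7 and Anxa11) are described here with S100a10, the gene of the small EF-hand protein that pairs with annexin A2. The members were the rows of these 9 gene symbols among the 17048 rows of each count table. They were measured in rat neural stem/progenitor cells (NSPCs) of wild-type (WT) genotype, which the study obtained from the embryonic telencephalon, expanded as neurospheres and plated on carbon films coated with poly-D-lysine and laminin (carbon nanotubes combined with graphene oxide nanoribbon). All groups were kept for 24 h in the same stemness-maintaining medium, and they differed in the film, which was of “High”, “Medium” or “Low” electrical conductivity. The study set the poly-D-lysine concentration by film to match the laminin that adsorbed. In its adhesion assay this concentration was the same for High and Low and lower for Medium. For Medium, coating and conductivity therefore cannot be told apart. Whether these concentrations also held for the sequenced cells is not stated. There were 2 libraries for each of the 3 films, 6 in all, and no source used here says that the 2 libraries of a film came from separate cultures or animals, so that p-values measure the spread between these libraries, which may be technical. No untreated or non-conductive control was among these libraries, and since each film is a single condition without a stated batch, film and preparation cannot be told apart.

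Each annexin carries a conserved core of repeats through which it sits on the inner face of a membrane in the presence of calcium, and a variable N-terminal tail that decides its partners. Annexins link membranes to actin, gather at wounds in the plasma membrane, and take part in endosome and exocytosis traffic. Annexin A2 forms a heterotetramer with S100A10, annexin A1 can bind S100A11, and annexin A11 binds S100A6 and the calcium sensor ALG-2 (the product of Pdcd6). Annexin A5 has a high affinity for phosphatidylserine, which is why the labelled protein is used as a stain for dying cells. That stain reads lipid on the cell surface and not Anxa5 RNA.

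QuantSeq libraries are primed at the poly(A) tail, and a transcript is read from its 3′ end whatever its length. Levels of different genes could therefore be set beside each other as TMM-normalized CPM, the counts of a gene scaled to the library's size. Total counts ran from 5124863 to 6213676 per library, and 5355 rows had a count in Medium replicate 1 against 6689 to 7809 in the others. Rows annotated as ribosomal RNA took 26.1 and 38.4% of the counts in the High libraries and 7.16 to 13% in the others. Summed markers of neural stem/progenitor cells, of which 8 of 10 had a count and Msi1 and Hes5 had none, were at 3313 and 3599 CPM on High and between 4769 and 6504 CPM on Medium and Low. Vim and Sox9 made up most of this sum, and not every marker was lowest on High: Fabp7 was at 205 and 225 CPM on High, 342 and 156 CPM on Medium and 42.3 and 119 CPM on Low, and Hes1 was highest in High replicate 1. In bulk RNA, fewer cells of a type and less RNA per cell cannot be told apart.

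S100a10 was by far the most abundant member, followed by Anxa7 and Anxa6, while Anxa3 and Anxa4 had 0 counts in every library. Anxa6 was the only one of the 6 tested members for which the 4 Medium and Low libraries did not overlap the High ones, and it was higher there. Such a lack of overlap was found in 18.2% of all tested rows (8.06% higher and 10.1% lower), so 1 of 6 is near that share. S100a10 stayed within a range of 1.36-fold over the 6 libraries, whereas its partner Anxa2 spanned 14.4-fold. Of the 9 members, 6 passed the filter on low counts and were tested, and none of the 6 passed an adjusted p of 0.05 in any contrast (edgeR's quasi-likelihood test). Of all 7729 rows the same test called 0.129% in Low and Medium against High, 0.0518% in Low against High, 0.0129% in Medium against High and 0% in Low against Medium, at a common dispersion of 2.04.

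The means over the 6 libraries were 948 CPM for S100a10, 180.0 CPM for Anxa7, 164 CPM for Anxa6, 75.2 CPM for Anxa11, 66.3 CPM for Anxa5, 43.5 CPM for Anxa2 and 4.18 CPM for Anxa1. S100a10 stood apart, since its lowest library (784 CPM) lay above the highest library of Anxa7 (314 CPM), and 124 of the 7729 tested rows had a higher mean. Each further pair of neighbours in this order had overlapping ranges over the libraries. The panels of CPM by library show these levels and how far the replicates of each film lay from one another.

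**Figure D1:**
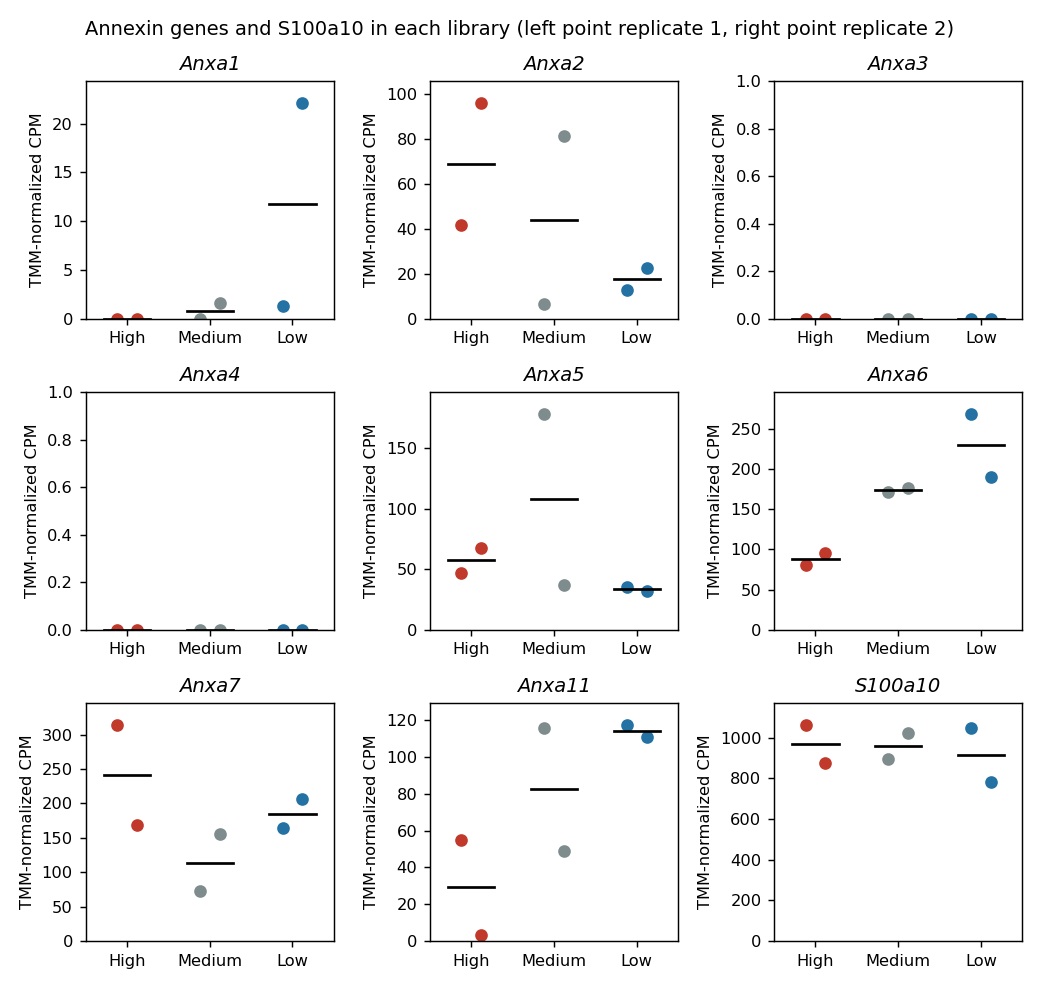
TMM-normalized CPM (vertical axis, each panel on its own scale from 0) of the 9 genes in the High, Medium and Low libraries, where points are single libraries and black lines are means of 2. Anxa6 lies at 81.0 and 95.2 CPM on High and between 172 and 269 CPM on the other films, Anxa3 and Anxa4 lie at 0 throughout, and the replicates of Anxa2, Anxa5 and Anxa11 are far apart on at least 1 film.

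Anxa6 encodes the largest annexin, with a doubled core, which tethers membranes to the actin cytoskeleton and acts in endocytic and cholesterol traffic. Its counts were 393 and 399 in the High libraries, 1002 and 1078 in the Medium libraries and 1855 and 1136 in the Low libraries. These correspond to 88.1 ± 10.1 CPM on High, 174 ± 3.43 CPM on Medium and 230 ± 55.2 CPM on Low (mean ± SD, n = 2 libraries each). The films did not overlap in any pair, with High lowest and Low highest. Medium lay above High without overlap in 16.2% of all tested rows, and Low above Medium in 16.3%. How many rows are ordered over all 3 films was not counted. The fitted log2 fold change of Low and Medium against High was 1.18 (SE 0.49, 95% interval 0.08 to 2.29), a 2.27-fold difference with an unadjusted p of 0.0376 and an adjusted p of 0.801 in edgeR's quasi-likelihood test. It ranked 337 by p among the 7729 rows, and 5.5% of all rows had an unadjusted p under 0.05 in this contrast. An exact two-sided permutation test gave p = 0.133, the smallest value that 4 libraries against 2 allow.

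Taken by film, Anxa6 was higher on Low than on High by 1.38 on the log2 scale (SE 0.55, adjusted p = 0.899, edgeR) and higher on Medium than on High by 0.99 (SE 0.55, adjusted p = 0.908, edgeR). Both comparisons use the same High libraries. Low and Medium differed by 0.40 (SE 0.54, interval -0.81 to 1.60), which is within the fitted error. The direction of Anxa6 against High held under each normalization tried and without each library in turn, with log2 fold changes of Low and Medium against High from 1.05 to 1.59. The share of ribosomal RNA and the sum of progenitor markers also separated High from the other films. So did the sum of oligodendrocyte-lineage markers, at 326 and 413 CPM on High and 556 to 748 CPM on Medium and Low. Of these 9 markers 7 had a count, Sox10 and Mag were at 0, and Olig1 and Olig2 gave most of the sum. Olig2 was lower on High, whereas Olig1 overlapped (147 and 178 CPM on High, 164 CPM in Medium replicate 1). Cspg4 was highest in High replicate 2 (56.3 CPM), and Mog was at 129 CPM in Medium replicate 1 and 0 elsewhere. Without the ribosomal rows the value for Anxa6 was 1.18, but dropping rows before scaling cannot show whether the ribosomal share bears on it. The part of the ribosomal share or of either marker list in the Anxa6 levels was not tested.

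Anxa7 and Anxa11 encode annexins with long N-terminal tails. Annexin A7 was first described as synexin for its aggregation of chromaffin granules, and annexin A11 tethers RNA granules to moving lysosomes in neurons. Anxa7 had 1525 and 704 counts on High, 423 and 948 on Medium and 1129 and 1227 on Low, or 241 ± 103, 114 ± 58.6 and 185 ± 30.0 CPM (mean ± SD, n = 2 each). Both Medium libraries lay below both High and both Low libraries, while Low overlapped High. The log2 fold change of Medium against High was -1.08 (SE 0.60, interval -2.42 to 0.26, adjusted p = 0.908, edgeR) and that of Low and Medium against High was -0.73 (SE 0.50, adjusted p = 0.804, edgeR). The former was -1.76 without Medium replicate 2 and -0.56 without High replicate 1, and the latter was -1.11 without High replicate 2 and -0.21 without High replicate 1. The RefSeq table of the GRCr8 build names 4 Anxa7 pseudogenes, and since alignments to several places were counted, reads of near-identical copies may be mixed into this row.

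Anxa11 had 266 and 14 counts on High, 675 and 298 on Medium and 811 and 661 on Low. In CPM these were 29.1 ± 36.4, 82.4 ± 47.4 and 114 ± 4.63 (mean ± SD, n = 2 each). The Low libraries were close together and lay above both High libraries, whereas Medium replicate 2 (48.9 CPM) fell below High replicate 1 (54.8 CPM). The log2 fold change of Low against High was 1.97 (SE 1.35, interval -1.05 to 4.99, adjusted p = 0.899, edgeR). High replicate 2, with its 14 counts, decided the size: for Low and Medium against High the value was 1.74 with all libraries (SE 1.23, adjusted p = 0.815, edgeR), 0.82 without High replicate 2 and 4.85 without High replicate 1.

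Anxa5, which encodes the phosphatidylserine-binding annexin, had 228 and 283 counts on High, 1038 and 227 on Medium and 245 and 192 on Low. The corresponding levels were 57.2 ± 14.5, 108 ± 99.6 and 33.9 ± 2.31 CPM (mean ± SD, n = 2 each). A single library, Medium replicate 1, which had the fewest rows with a count, was high at 178 CPM, and the other Medium library (37.2 CPM) lay close to the Low libraries. Both Low libraries were below both High libraries, with a log2 fold change of -0.76 (SE 1.23, interval -3.50 to 1.99, adjusted p = 1, edgeR). For Medium against High the value was 0.91 (SE 1.23, adjusted p = 1, edgeR), and it turned to -0.62 without Medium replicate 1.

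Anxa2 and S100a10 encode the subunits of a heterotetramer that joins membranes to cortical actin and, at the cell surface, binds plasminogen and its activators. Anxa2 had 202 and 403 counts on High, 39 and 496 on Medium and 87 and 135 on Low, or 68.9 ± 38.6, 44.0 ± 52.8 and 17.6 ± 7.11 CPM (mean ± SD, n = 2 each). Both Low libraries were below both High libraries, and the Medium libraries held the lowest and the highest count of all 6. By CPM, however, High replicate 2 was highest (96.1 CPM, beside 81.4 CPM in Medium replicate 2). The log2 fold change of Low against High was -1.96 (SE 1.85, interval -6.09 to 2.16, adjusted p = 1, edgeR) and that of Low and Medium against High was -1.31 (SE 1.49, adjusted p = 0.970, edgeR). The latter was -2.68 without Medium replicate 2 and -0.58 without High replicate 2.

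Medium replicate 2 was the library with the highest summed level of meningeal, vascular and fibroblast markers. Of these 12 genes 6 had a count, Dcn, Lum, Pdgfrb, Pecam1, Cldn5 and Cdh5 were at 0, and the summed level was 103 and 137 CPM on High, 14.9 and 401 CPM on Medium and 52.2 and 20.3 CPM on Low. In Medium replicate 2 the sum was nearly all from the fibrillar collagen genes Col1a1 (329 CPM) and Col3a1 (63.0 CPM), while Col1a2, Acta2 and Tagln were at 0 there. Acta2, a smooth muscle actin gene, was instead highest on High, at 57.1 and 101 CPM. S100a6, another EF-hand gene, had 1227 counts in Medium replicate 2 and at most 1 in any of the other libraries. Anxa2 was lowest in Medium replicate 1, the library with the lowest sum of these markers, and their part in the Anxa2 levels was not tested.

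S100a10 had 5158 and 3665 counts on High, 5219 and 6233 on Medium and 7225 and 4672 on Low. Its level was 969 ± 133 CPM on High, 959 ± 89.5 CPM on Medium and 915 ± 186 CPM on Low (mean ± SD, n = 2 each), so the films overlapped throughout. The log2 fold change of Low and Medium against High was -0.05 (SE 0.23, adjusted p = 1, edgeR), with a 95% interval of -0.56 to 0.47. This is the narrowest interval among the 6 tested members. The sign depended on the scaling: without composition normalization (total counts alone) the value was 0.34, where the median of all tested rows was 0.26.

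Set against its partner within each library, Anxa2 gave 3.92 and 11 counts per 100 counts of S100a10 on High, 0.747 and 7.96 on Medium and 1.20 and 2.89 on Low. Both Low libraries were below both High libraries, while Medium replicate 1 was lowest of all and Medium replicate 2 lay between the High libraries. The mean log2 ratio was lower in Low and Medium than in High by a difference of -1.62, with p = 0.267 in an exact two-sided permutation test over 4 against 2 libraries. In each library S100a10 RNA outnumbered Anxa2 RNA, by 9.09-fold in High replicate 2 and by 134-fold in Medium replicate 1. RefSeq names 1 pseudogene each for Anxa2 and S100a10.

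Anxa1 encodes an annexin known for its anti-inflammatory action through formyl peptide receptors. It had 0 counts in both High libraries, 0 and 10 on Medium, and 9 and 132 on Low, which gave 11.7 ± 14.7 CPM on Low (mean ± SD, n = 2). A count of 0 allows up to 0.618 and 0.716 CPM in the 2 High libraries (3 counts each, counting error only). Most Anxa1 counts thus came from Low replicate 2, and the gene did not pass the filter. Anxa3 and Anxa4, the latter typical of epithelia, had no count, with upper limits of 0.435 to 0.716 CPM per library by counting error only.

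The promoters of Anxa1, Anxa2 and Anxa11 are shown for their motif matches. Of the 7 members with a promoter entry, only Anxa1 and Anxa2 held the letters TATAAA before the start, and Anxa11 had the most GGGCGG matches. Each line gives the 250 bases before the annotated transcript start, from 5′ to 3′ on the gene's own strand, from RefSeq on GRCr8 (chr1:227303733-227303982, minus strand, for Anxa1; chr8:78986002-78986251, plus strand, for Anxa2; chr16:1419484-1419733, plus strand, for Anxa11). Capitals mark TATAAA (the TATA box core) and GGGCGG (the core bound by Sp1-type factors), the latter read on either strand and hence as CCGCCC where it is on the opposite strand.
Anxa1: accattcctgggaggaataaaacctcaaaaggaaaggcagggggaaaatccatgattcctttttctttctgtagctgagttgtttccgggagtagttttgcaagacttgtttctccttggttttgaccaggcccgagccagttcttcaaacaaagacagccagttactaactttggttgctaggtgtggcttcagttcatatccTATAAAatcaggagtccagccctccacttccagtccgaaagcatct
Anxa2: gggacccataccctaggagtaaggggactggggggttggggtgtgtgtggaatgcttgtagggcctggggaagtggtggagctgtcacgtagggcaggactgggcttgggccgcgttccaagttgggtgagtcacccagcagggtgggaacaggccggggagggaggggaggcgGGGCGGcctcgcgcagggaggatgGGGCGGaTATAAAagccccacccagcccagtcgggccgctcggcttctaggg
Anxa11: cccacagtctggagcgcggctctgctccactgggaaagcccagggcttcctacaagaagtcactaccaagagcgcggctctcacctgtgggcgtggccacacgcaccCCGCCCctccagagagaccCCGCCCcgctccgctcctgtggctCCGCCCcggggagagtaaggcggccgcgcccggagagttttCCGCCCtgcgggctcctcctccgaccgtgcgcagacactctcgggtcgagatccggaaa
Of the 9 members all but Anxa6 and S100a10 had an entry. TATAAA began 46 bases before the start in Anxa1 and 45 bases before it in Anxa2, and was present on either strand in 12.93% of all 33469 promoters. GGGCGG was present in 5 of the 7 (Anxa2, Anxa3, Anxa4, Anxa5 and Anxa11) and in 30.47% of all promoters. Both motifs were searched on both strands and do not overlap one another. Anxa3 and Anxa4, at 0 counts here, had GC contents of 64.0 and 62.4% in this window beside 69.2% in Anxa11 and 45.2% in Anxa1, with a median of 51.2% over all promoters. These matches describe letters in the window and not the use of a promoter in these cells.

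Across the 6 tested members the contrasts went in both directions. In Low and Medium against High, 0 of 6 members were called at an adjusted p of 0.05 against 0.129% of all rows, 1 (Anxa6) had an unadjusted p under 0.05 against 5.5%, and 1 had non-overlapping libraries against 18.2% of all rows (8.06% higher, as Anxa6 was, and 10.1% lower). In Low against High, 0 were called against 0.0518% of all rows, 1 (Anxa6) had an unadjusted p under 0.05 against 4.27%, and 4 did not overlap against 37.4%, with Anxa6 and Anxa11 higher (19.4% of all rows) and Anxa2 and Anxa5 lower (18% of all rows). In Medium against High, 0 were called against 0.0129%, 0 had an unadjusted p under 0.05 against 4.04%, and 2 did not overlap against 34.8%, Anxa6 higher (16.2% of all rows) and Anxa7 lower (18.6%). In Low against Medium, 0 were called against 0% of all rows, 0 had an unadjusted p under 0.05 against 1.51%, and 3 did not overlap against 29%, Anxa6 and Anxa7 higher (16.3% of all rows) and Anxa5 lower (12.6%). With DESeq2, too, 0 of the 6 were called in each of the 4 contrasts, against 5.23, 3.94, 4.24 and 1.57% of all rows in the order above, the lowest adjusted p being 0.0898 for Anxa6 in Low and Medium against High.

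The members' median log2 fold change was 0.01 in Low and Medium against High, beside -0.12 over all tested rows. It was -0.23 beside 0.02 in Low against High, 0.45 beside -0.06 in Medium against High and 0.17 beside 0.07 in Low against Medium. Comparisons against High share their High libraries. The plot of fold changes shows that the intervals were narrowest for S100a10 and widest for Anxa2 and Anxa11.

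**Figure D2:**
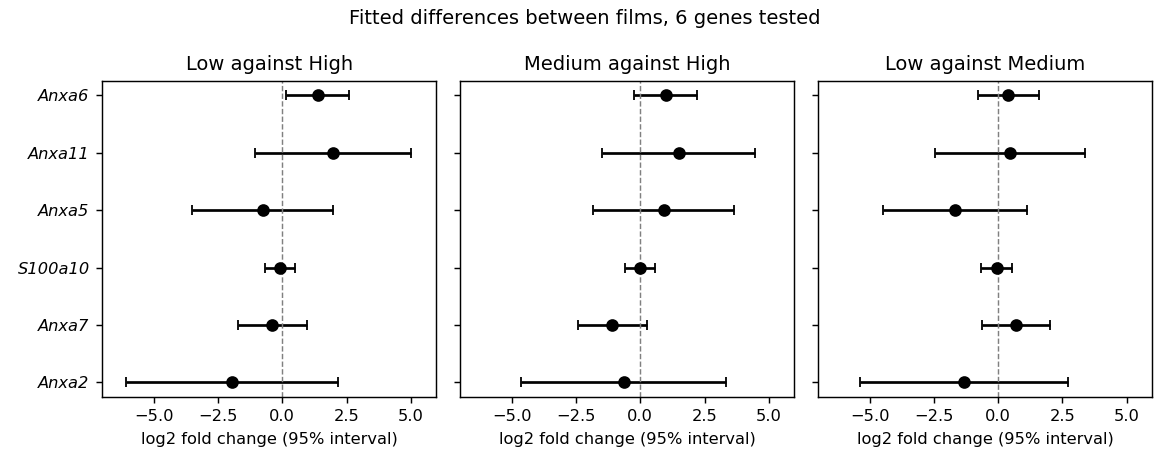
Fitted log2 fold changes (horizontal axis) with 95% intervals (bars) of the 6 tested genes in Low against High, Medium against High and Low against Medium, 2 libraries per film. The interval of Anxa6 in Low against High (0.16 to 2.61) lies above 0, and the other 17 intervals include 0.

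The shares of the single genes in the summed annexin counts are given as a description, without a test. The 8 annexin genes together had 1803 to 4136 counts per library, at 430.1 to 599 CPM. Anxa6 made up 15% (95% exact binomial interval 13.7 to 16.5%) and 22.1% (20.2 to 24.1%) of them on High, 31.5% (29.9 to 33.2%) and 35.3% (33.6 to 37.0%) on Medium, and 44.9% (43.3 to 46.4%) and 32.6% (31.1 to 34.2%) on Low. Anxa7 made up 58.3% (56.4 to 60.2%) and 39.0% (36.8 to 41.3%) on High, 13.3% (12.2 to 14.5%) and 31.0% (29.4 to 32.7%) on Medium, and 27.3% (25.9 to 28.7%) and 35.2% (33.6 to 36.8%) on Low. Anxa7 was thus the leading annexin in both High libraries, and Anxa6 led in Low replicate 1 and Medium replicate 2. In Medium replicate 1 Anxa5 led with 32.7%, just ahead of Anxa6, and in Low replicate 2 Anxa7 led.

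The mean share of Anxa6 was 18.6 ± 5.02% on High, 33.4 ± 2.63% on Medium and 38.7 ± 8.65% on Low (SD, n = 2 each), and that of Anxa7 was 48.7 ± 13.6%, 22.2 ± 12.5% and 31.3 ± 5.61%. For both genes the shares in the 4 Medium and Low libraries did not overlap those in the High libraries. By CPM, however, Anxa7 overlapped, with High replicate 2 at 168 CPM and Low replicate 2 at 206 CPM. How often shares of other sums separate in this way was not computed. Shares of 1 sum are tied to each other, since a higher share of 1 gene lowers the rest. The intervals cover counting error only and treat reads as independent, which they are not, so they are too narrow. They leave out the spread between libraries.

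**Figure D3:**
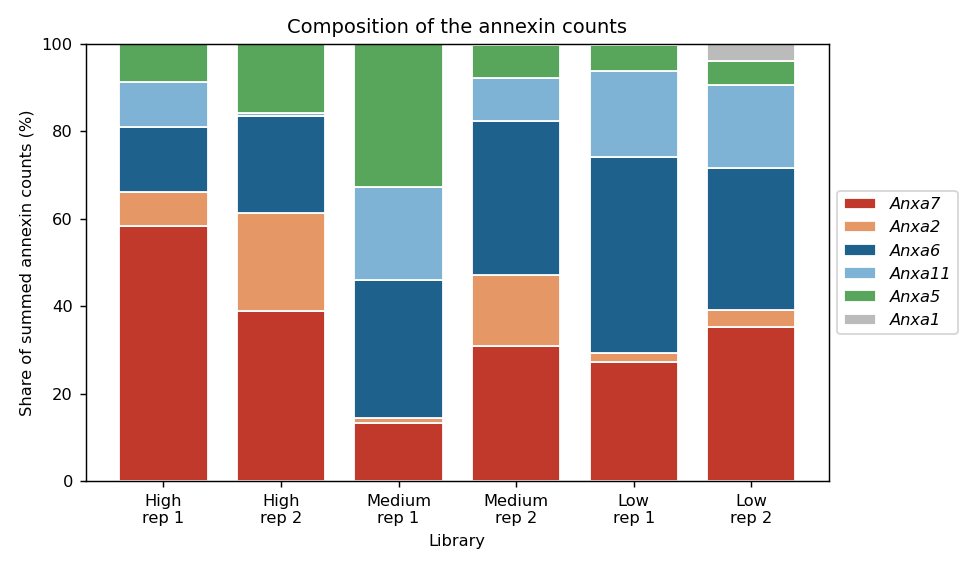
Share of each annexin gene in the summed annexin counts (vertical axis, %) for the 6 libraries (horizontal axis); Anxa3 and Anxa4 are at 0. Anxa7 takes 58.3 and 39.0% in the High libraries, and Anxa6 takes 31.5 to 44.9% in the Medium and Low libraries.

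The spread between replicates differed among members. On a log2(CPM + 1) scale the 2 Medium libraries differed by 0.04 for Anxa6 and by 3.42 for Anxa2, beside a median of 0.75 over the 3347 rows with a mean log2 value of 5 or more. On High the difference was 0.23 for Anxa6 and 3.68 for Anxa11, beside 0.63 for those rows. On Low it was 0.08 for Anxa11, 0.14 for Anxa5 and 0.49 for Anxa6, beside 0.62.

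The members did not share 1 pattern. Likeness was measured as the root mean square (RMS) difference of log2(CPM + 1) over the 6 libraries, after each row was centred on its own mean. Among the members, the smallest values were those of Anxa7 and S100a10 (RMS 0.61) and of Anxa6 and S100a10 (0.62). The largest was that of Anxa2 and Anxa11 (2.82). Rows were not scaled by their spread, and S100a10 varied only 1.36-fold over the libraries. Its values therefore mostly reflect how far the other member varied, and not a shared direction. Anxa2 and its partner S100a10 were at 1.32.

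Among 4314 abundant rows, those closest to Anxa6 were Hdhd2 (RMS 0.13), Shfm1 (0.14) and Sox2 (0.16), beside a median of 1.06 over these rows. Sox2, a transcription factor gene of neural stem cells, was at 268 and 266 CPM on High, 598 and 554 CPM on Medium and 705 and 683 CPM on Low. Closest to Anxa7 were Surf6 (0.13), Hip1 (0.19) and Igfbp2 (0.20), and among those closest to S100a10 were a row of the ribosomal protein gene Rps14 (0.07) and a row of Rpl38 (0.10). For Anxa5 they were Zfp131 (0.09), Anapc4 (0.27) and Nop56 (0.27). For Anxa2 they were Trafd1 (0.28), Psmc6 (0.43) and Ndufa10 (0.47), and for Anxa11 they included Ccdc90b (0.25) and Lrrn2 (0.34). These are descriptions over 6 libraries, and the nearest rows were picked from all of them.

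Genes that work with the annexins were described from 6 lists, in which edgeR's test called 0 of the 32 tested genes in any contrast. In Low and Medium against High 3 of the 32, S100a13, Gas6 and Ano6, had an unadjusted p under 0.05 against 5.5% of all rows. DESeq2 called these 3 and Anxa8, 4 of its 33 tested list genes, against 5.23% of all rows. It called 4 of 32 in Low against High (3.94% of all rows), 2 of 33 in Medium against High (4.24%) and 4 of 34 in Low against Medium (1.57%), among them S100a6 and Anxa8, which have nearly all their counts in 1 library. Of 12 other S100 genes 5 had a count and 4 were tested. S100a16 was at 344 and 298 CPM on High, 460.5 and 479 CPM on Medium and 471 and 372 CPM on Low. All 4 Medium and Low libraries thus lay above High, as in 8.06% of all tested rows (log2 fold change 0.47, SE 0.29, adjusted p = 0.801, edgeR). S100a13 had 311 and 101 counts on High, 189 and 240 on Medium and 0 in both Low libraries (adjusted p = 0.899 in Low against High, edgeR). S100a11, the partner of annexin A1, had no count. S100b and S100a4 varied between replicates, each with 0 counts in High replicate 1.

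Among 20 genes of membrane repair and annexin partners, 12 were tested, 9 of them with a positive and 3 with a negative fitted difference in Low and Medium against High (list median 0.45, beside -0.12 over all rows). Of all tested rows 45.9% had a positive difference. Several of the 12 had 0 counts in at least 1 library, and none was called. Capn2, a calcium-activated protease of membrane repair, was at 94.6 and 64.9 CPM on High, 311 and 122 CPM on Medium and 99.5 and 165 CPM on Low (log2 fold change 1.09, SE 0.63, adjusted p = 0.801, edgeR). Plat, the plasminogen activator that the annexin A2 complex can bind, was at 51.7 and 22.7 CPM on High, 337 and 70.0 CPM on Medium and 90.4 and 79.7 CPM on Low (1.82, SE 0.87, adjusted p = 0.801, edgeR). Both genes were higher in each Medium and Low library than in either High library, as were 8.06% of all tested rows. Both peaked in Medium replicate 1. Pdcd6, the gene of ALG-2, was at 179 ± 42.6, 184 ± 84.1 and 219 ± 9.01 CPM on High, Medium and Low (SD, n = 2 each), and Pdcd6ip was at 240.0 ± 130, 174 ± 56.8 and 139 ± 4.11 CPM, each with overlap between High and the 4 other libraries. Ahnak, a large scaffold of the annexin A2 complex, had 10 counts in High replicate 1 and 0 elsewhere.

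The genes that expose, hide or bind phosphatidylserine, a lipid that annexins bind, formed a further list. Gas6, whose product bridges phosphatidylserine to TAM receptors, was at 719 and 758 CPM on High, 1644 and 1703 CPM on Medium and 1749 and 1734 CPM on Low. All 4 Medium and Low libraries lay above both High libraries, as in 8.06% of all tested rows. The log2 fold change of Low and Medium against High was 1.21 (SE 0.20, unadjusted p = 0.000125, adjusted p = 0.0781, edgeR), which misses the threshold. With DESeq2 the value was 1.15 and the adjusted p 5.51e-12. Ano6, the calcium-activated scramblase that brings phosphatidylserine to the surface, was at 228 and 250 CPM on High, 197 and 127 CPM on Medium and 18.8 and 52.5 CPM on Low. Both Low libraries lay below both Medium ones (12.6% of all tested rows), and these below both High ones (18.6%). How many rows are ordered over all 3 films was not counted, and the coating may also have differed for Medium. The log2 fold change of Low against High was -2.74 (SE 0.72, adjusted p = 0.631, edgeR), and DESeq2 gave -2.82 with an adjusted p of 0.000342. Mfge8, a secreted phosphatidylserine binder, was at 237 ± 121, 185 ± 46.0 and 321 ± 21.4 CPM, and Xkr8, a caspase-activated scramblase, at 10.2 ± 14.4, 45.6 ± 5.61 and 45.4 ± 46.6 CPM (SD, n = 2 each). Of 15 genes 7 were tested, and the list's median was 0.24.

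Of 16 further genes with C2 domains 4 were tested, and Prkcb overlapped across films (237 ± 9.80, 247 ± 12.6 and 223 ± 62.5 CPM, log2 fold change -0.01, SE 0.39). Cpne8, Syt11 and Doc2a each had 0 counts in at least 1 library. Cpne8 was at 25.3 CPM in both High libraries and at most 23.2 CPM elsewhere. Such a lower level without overlap was found in 10.1% of all tested rows. Of 10 caveolar and raft genes 5 were tested, among them Flot1, Flot2, Ehd1 and Pacsin2, all with overlap between High and the 4 other libraries (list median 0.60). Among 4 other annexins, Anxa8 had 602 counts in Medium replicate 1 and 0 elsewhere, and Anxa10 and Anxa13 had no count.

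**Figure D4:**
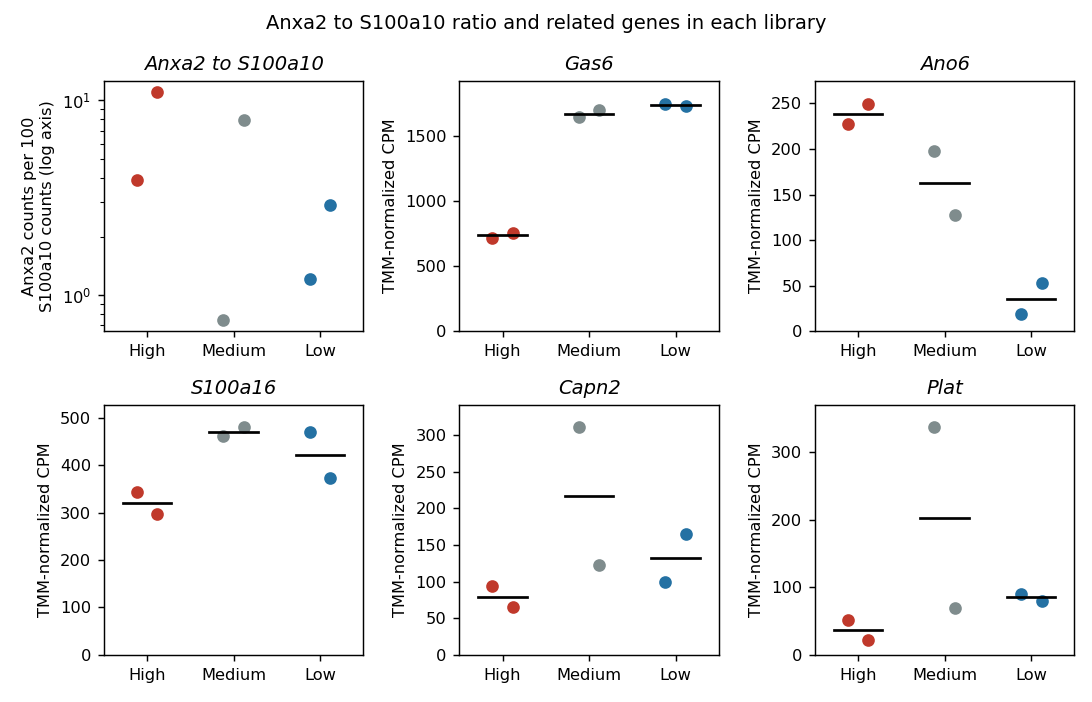
Anxa2 counts per 100 S100a10 counts (first panel, log axis) and TMM-normalized CPM of Gas6, Ano6, S100a16, Capn2 and Plat (vertical axes from 0) in the High, Medium and Low libraries, where points are single libraries and black lines are means of 2. Gas6 lies at 719 and 758 CPM on High and at 1644 to 1749 CPM on the other films, and Ano6 lies at 228 and 250 CPM on High and at 18.8 and 52.5 CPM on Low, neither past the adjusted threshold in edgeR's test. The plotted list genes are ones whose Medium and Low libraries did not overlap High, as in 18.2% of all tested rows. List genes that overlapped, such as Pdcd6, Mfge8 and Prkcb, are not plotted.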

How the data were processed

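The libraries were QuantSeq 3′ mRNA-seq, single-end. Per the paper's methods and the submitters' processing notes, the authors aligned reads with Bowtie2, took uniquely and multiply aligned reads into the per-gene counts of bedtools coverage, and deposited raw read counts on build rn6, with 1 table per library; tool versions are not given in the sources used here. Multiple alignments make genes with near-identical copies uncertain, and without molecular identifiers counts are not independent molecules. The labels and methods name different RNA reagents.

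Rows were filtered with filterByExpr (minimum count 10), which left 7729, normalized by TMM and tested with edgeR 4.0.16 (quasi-likelihood, R 4.3.3, limma 3.58.1) in 1 fit of all 6 libraries with 3 film means, Benjamini-Hochberg adjusted over all 7729 rows. SE is the log2 fold change divided by the root of F. Single values were tested by exact two-sided permutation. Promoters came from RefSeq GRCr8. The members and gene lists were chosen with earlier results of these data known; named genes were the members, up to 4 tested genes of highest mean CPM per list, and the 3 nearest rows per member, apart from 2 rows that are not reported here. Anxa8, S100a6, S100a11, Ahnak, Anxa10 and Anxa13 were named after their values were seen. The alternatives were DESeq2 1.42.0, other scalings and filters, a replicate block, and leaving out each library.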

Additional observations from a re-analysis of the deposited data

How the results depend on the processing

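Of 312 refitted member values (6 genes, 4 contrasts, 13 alternatives), 292 kept their direction and stayed short of an adjusted p of 0.05, 20 changed sign, and 0 passed the threshold. Anxa6 kept its sign in all, with adjusted p in Low and Medium against High from 0.0898 (DESeq2) to 1. Without composition normalization (total counts alone) S100a10 changed sign to 0.34 (Low and Medium against High), 0.32 (Low against High) and 0.36 (Medium against High), where the median of all rows moved to 0.26, 0.42 and 0.29. Leaving out 1 library gave, for Low and Medium against High, -0.69 to 0.42 for Anxa5 and -0.18 to 0.10 for S100a10. For Low against High it gave -0.77 to 0.14 for Anxa7 and -0.30 to 0.11 for S100a10. For Medium against High it gave -3.39 to 0.24 for Anxa2, -0.62 to 1.61 for Anxa5 and -0.15 to 0.14 for S100a10. For Low against Medium it gave -2.20 to 1.42 for Anxa2 and -0.29 to 0.13 for S100a10. The Anxa2 to S100a10 log2 difference ran from -2.37 to -0.88, and the linear ratio differed by -4.26 counts per 100.

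The counts of all rows called depended on the setting, and the cause was not tested. In Low and Medium against High 10 were called, beside 370 (DESeq2), 68 (no filter), 29 (at least 10 counts in every library), 57 (replicate block) and 34 to 242 on leaving out a library (the highest without Medium replicate 2). In Low against High 4 were called, beside 272 (DESeq2), 34 (no filter), 13 (the stricter filter), 0 (total counts alone), 2 (without ribosomal RNA rows), 30 (replicate block) and 19 to 65. In Medium against High 1 was called, beside 300 (DESeq2), 48 (no filter), 16 (the stricter filter), 0 (total counts alone), 39 (replicate block) and 11 to 275. In Low against Medium 0 were called, beside 122 (DESeq2), 5 (no filter) and 0 to 194, and 117 had an unadjusted p under 0.05.

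Same-numbered libraries had correlations of deviations of 0.0066 (High and Medium), 0.0034 (High and Low) and 0.0073 (Medium and Low) over the 7729 rows. Whether the replicate numbers mark a shared culture or preparation was not tested. With the replicate block 1 member value changed sign, Anxa5 in Low and Medium against High (-0.083). Leaving out a library leaves 1 film with a lone library, which is assumed to vary like the others. Anxa1, Anxa3 and Anxa4 did not pass the filter. By counting error alone, a count of 0 allows levels up to 0.435 to 0.716 CPM, depending on the library. Libraries of 1 film could differ by more than counting error. Anxa8, for example, had 602 counts in Medium replicate 1 and 0 in Medium replicate 2, so true levels may lie above this limit.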
